A study of Homo sapiens with 12 samples.

Results

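The genes described here are 10 members of the JmjC oxygenase family, KDM2B, KDM3A, KDM4A, KDM4B, KDM4C, KDM5A, KDM5B, KDM6A, KDM6B and JMJD6, taken by name from the table of 57773 gene IDs, in which all 10 had an ID. RNA was sequenced from HEK293 cells, a human embryonic kidney line, and from the extracellular vesicles (EVs) that the same line released. All libraries came from cells lipofected for 48 h with the 4EC1 vectors, which carry eGFP with parts named EIF4E, YTHDF1, GBP1 and CD9, so the normoxia groups carried it as well, and no untransfected group was compared. Serum was given as 10% for all libraries. The 4 groups, with 3 libraries each, were EVs of transfected HEK293 cells after hypoxia (24 h in a hypoxia chamber), EVs of transfected HEK293 cells in normoxia, transfected HEK293 cells after hypoxia and transfected HEK293 cells in normoxia. The sources used here do not give the oxygen level, the work rests on 1 cell line, and the labels leave unsaid whether the 3 libraries of a group came from separate cultures. All p-values therefore measure the spread between libraries alone, and that spread may be technical.

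JmjC demethylases are iron-dependent and 2-oxoglutarate-dependent dioxygenases that oxidise the methyl groups of histone lysines, which then leave as formaldehyde. Molecular oxygen is a co-substrate of each reaction, and the activity of KDM5A and KDM6A in particular is known to fall in cells short of oxygen. Several of the genes, KDM3A and KDM4B among them, are known targets of the hypoxia-inducible factors (HIF), so that an enzyme that needs oxygen can be made in larger amounts when oxygen is scarce. By substrate, KDM3A removes methyl groups from histone H3 lysine 9, KDM4A, KDM4B and KDM4C act on H3 lysines 9 and 36, KDM5A and KDM5B on H3 lysine 4, KDM6A and KDM6B on H3 lysine 27, and KDM2B on H3 lysine 36. JMJD6 carries the same fold but is best known as a lysyl hydroxylase of splicing factors.

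Promoter windows are shown for the 3 members that rose in hypoxic cells and for KDM4C, which did not pass there, because the HIF recognition core is a short DNA motif that can be looked for in them. The RefSeq windows (GRCh38.p14, 250 bases before to 50 after a gene's start) matched 9 of the 10 members with 14 windows. Capitals mark ACGTG or GCGTG on either strand, so CACGT and CACGC on the printed strand are capitals too, and in CACGTG, the E-box, a match on each strand overlaps.
KDM3A (chr2:86441121-86441420, + strand): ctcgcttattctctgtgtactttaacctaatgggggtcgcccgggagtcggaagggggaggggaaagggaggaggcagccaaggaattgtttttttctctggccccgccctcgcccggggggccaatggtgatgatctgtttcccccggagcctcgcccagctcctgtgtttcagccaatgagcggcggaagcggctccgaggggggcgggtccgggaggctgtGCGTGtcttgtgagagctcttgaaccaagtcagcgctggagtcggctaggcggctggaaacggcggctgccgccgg
KDM6B upstream start (chr17:7833967-7834266, + strand): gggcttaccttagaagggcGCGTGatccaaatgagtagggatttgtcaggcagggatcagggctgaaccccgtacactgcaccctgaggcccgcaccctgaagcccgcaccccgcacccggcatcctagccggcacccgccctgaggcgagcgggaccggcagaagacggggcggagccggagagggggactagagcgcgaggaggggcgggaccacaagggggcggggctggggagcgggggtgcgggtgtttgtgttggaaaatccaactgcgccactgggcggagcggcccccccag
KDM6B annotated start (chr17:7839667-7839966, + strand): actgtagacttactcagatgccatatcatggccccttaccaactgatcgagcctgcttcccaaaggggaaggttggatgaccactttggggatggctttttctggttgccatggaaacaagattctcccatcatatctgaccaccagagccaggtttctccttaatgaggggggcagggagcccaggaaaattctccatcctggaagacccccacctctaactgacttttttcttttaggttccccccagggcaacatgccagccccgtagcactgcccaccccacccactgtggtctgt
KDM4B (chr19:4968863-4969162, + strand): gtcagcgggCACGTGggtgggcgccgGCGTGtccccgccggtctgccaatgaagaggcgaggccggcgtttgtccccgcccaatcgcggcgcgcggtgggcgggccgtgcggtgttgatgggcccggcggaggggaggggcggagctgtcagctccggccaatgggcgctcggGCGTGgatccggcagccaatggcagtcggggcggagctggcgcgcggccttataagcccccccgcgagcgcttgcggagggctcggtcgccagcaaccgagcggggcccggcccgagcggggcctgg
KDM4C (chr9:6757723-6758022, + strand): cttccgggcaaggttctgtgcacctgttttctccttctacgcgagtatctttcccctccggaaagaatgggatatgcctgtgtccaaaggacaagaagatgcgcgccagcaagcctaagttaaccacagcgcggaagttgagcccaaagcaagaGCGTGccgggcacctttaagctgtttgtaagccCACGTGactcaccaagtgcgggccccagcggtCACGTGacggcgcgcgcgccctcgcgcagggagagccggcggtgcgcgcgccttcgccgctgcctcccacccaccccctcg
The KDM3A window held 1 match, GCGTG at 26 bases before the start. KDM4B held 4 matches, 2 of them in a single E-box, and KDM4C held 5, 4 of them in a pair of E-boxes. The KDM6B window at the start of the gene as annotated in GENCODE held no match. The other KDM6B window lies upstream of that gene's span, was not found in its GENCODE transcripts and held 1. In all, 13 of the 14 windows held either motif, against 48.4% of 35116 RefSeq windows of the same length, and 4 of 14 held ACGTG, against 21.4%. These are not 14 separate promoters, since KDM2B supplied 4 windows and the 2 KDM3A windows overlap and share the same GCGTG. KDM4C and KDM6A had the most matches, 5 each, and neither passed the test in cells. A match describes the letters of a window and is not evidence of binding.

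Values below are normalised read counts, which are reads divided by 1 factor per library. Cell libraries held 18059381 to 23400813 reads and EV libraries 3259453 to 7001767. The members held 933 to 5805 reads per library in cells and 96 to 1262 in EVs, and the lowest count was that of KDM6A in hypoxia EV replicate 3. Reads on EIF4E, YTHDF1 and CD9, genes of the vectors, took 19.97% to 23.2% of reads in hypoxia EVs, 21.9% to 24.4% in normoxia EVs, 6.93% to 7.28% in hypoxia cells and 5.89% to 6.56% in normoxia cells. Where vector genes are left out below, these are meant, and GBP1 was kept. Read density on 356 olfactory receptor genes, which cells of this line are not known to use, averaged 1.03 RPKM (reads per kilobase of exon, scaled to library depth) in hypoxia EVs, 0.263 in normoxia EVs, 0.0712 in hypoxia cells and 0.0471 in normoxia cells. Among normoxia EVs, replicate 3 had 0.483 RPKM, and replicates 1 and 2 had 0.104 and 0.201 RPKM. All 7 HEK293-associated genes in the table (IRS4, PAX2, NEFM, LIN28B, CDH2, VIM and KRT18) exceeded 1 RPKM in each group. They summed to 233 to 247 RPKM in hypoxia EVs, 257 to 296 in normoxia EVs, 239 to 244 in hypoxia cells and 351 to 361 in normoxia cells. In hypoxia EVs NEFM held most of their reads, 3462 on average, followed by IRS4 with 732. The 18 markers of liver, blood, fibroblasts, endothelium and mature kidney tubule summed to 44.1 to 53.9 RPKM in hypoxia EVs, 10.2 to 29.9 in normoxia EVs, 8.13 to 9.20 in hypoxia cells and 7.29 to 8.11 in normoxia cells, with none of them at 0 in every library of a group. Of these 18, 13 exceeded 1 RPKM on average in hypoxia EVs, 8 in normoxia EVs and 3 in either cell group. In hypoxia EVs, where the receptor genes averaged 1.03 RPKM, passing 1 RPKM does not set the HEK293-associated genes apart. As all values are relative amounts, fewer vesicles and less RNA per vesicle, or fewer cells and less RNA per cell, cannot be told apart.

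In cells, the comparison of hypoxia with normoxia shows which of these enzymes' mRNAs changed with the oxygen supply. KDM3A, the H3 lysine 9 demethylase, more than doubled. KDM6B, the inducible H3 lysine 27 demethylase, and KDM4B, of the H3 lysine 9 and 36 group, rose by less, and KDM5A, an H3 lysine 4 demethylase, fell slightly. Thus 3 of the 10 members rose, against 8.01% of the 17260 genes tested, and 1 fell, against 22.4% (30.4% either way) (limma-trend on log2(value + 1), Benjamini-Hochberg adjusted p under 0.05). All 10 passed the filter of a mean of at least 10 in each comparison, and their median log2 fold change was 0.02, against -0.07 over all genes tested. The shares over all genes include many of low value. Over the 12016 genes with a mean of at least 50, 42.3% were called either way, and the same members passed.

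KDM3A (ENSG00000115548, chromosome 2, 86440647 to 86492716, GRCh38) stood at 2585, 2837 and 2997 in the hypoxia cells and at 1292, 1275 and 1324 in the normoxia cells. Each hypoxia library lay far above all 3 normoxia libraries. The means were 2806 ± 207 and 1297 ± 25.1 (SD, n = 3 each), which put hypoxia higher by 1.11 on the log2 scale (SE 0.06, limma adjusted p = 8.76e-24). The call held in each of the 12 other settings tried, at 1.11 to 1.25, and without any 1 of the 6 libraries.

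KDM6B (ENSG00000132510, chromosome 17, 7839904 to 7854796) stood at 1934, 2202 and 2205 in the hypoxia cells and at 1398, 1408 and 1524 in the normoxia cells. The groups did not overlap, with hypoxia replicate 1 the lowest of its group. The log2 fold change was 0.55 (SE 0.06, limma adjusted p = 2.22e-10). The call held in 11 of 12 other settings and without any 1 library, and ended in the fit over all 12 libraries (limma adjusted p = 0.331). Its counterpart on the same lysine, KDM6A (ENSG00000147050, chromosome X, 44873177 to 45112602), a subunit of the KMT2C and KMT2D complexes, stood at 939, 842 and 848 in the hypoxia cells and at 985, 897 and 1059 in the normoxia cells. These groups overlapped, and KDM6A did not pass (-0.16, SE 0.07, limma adjusted p = 0.0979).

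KDM4B (ENSG00000127663, chromosome 19, 4969113 to 5153595) stood at 1002, 1025 and 983 in the hypoxia cells and at 825, 869 and 902 in the normoxia cells. All hypoxia libraries were above all normoxia libraries, by a small margin (log2 fold change 0.21, SE 0.07, limma adjusted p = 0.0175). That call ended without normoxia cell replicate 1 (0.18, limma adjusted p = 0.086) or hypoxia cell replicate 2 (0.20, limma adjusted p = 0.0701). It also ended without a filter on low values and in the fit over all 12 libraries (limma adjusted p = 0.855). The other genes of its group did not pass. KDM4A (ENSG00000066135, chromosome 1, 43650158 to 43705515) averaged 896 ± 34.5 in hypoxia cells and 934 ± 86.2 in normoxia cells, and KDM4C (ENSG00000107077, chromosome 9, 6720863 to 7175648) averaged 502 ± 14.1 and 508 ± 28.8 (SD, n = 3 each). The 95% intervals of their log2 fold changes ran from -0.20 to 0.09 and from -0.19 to 0.16, and their estimates of -0.06 and -0.02 turned to 0.07 and 0.11 with equal library totals.

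KDM5A (ENSG00000073614, chromosome 12, 280129 to 389454) stood at 2028, 2089 and 2040 in the hypoxia cells and at 2097, 2436 and 2334 in the normoxia cells. The groups did not overlap but nearly met (log2 fold change -0.15, SE 0.06, limma adjusted p = 0.0462). This call ended with TMM factors (-0.10), with equal totals (-0.03), in edgeR and DESeq2 (-0.07 each), without a filter (-0.15, limma adjusted p = 0.125), and without any of normoxia cell replicates 2 (-0.11) and 3 (-0.14) or hypoxia cell replicates 1 (-0.15), 2 (-0.17) and 3 (-0.15). KDM5B (ENSG00000117139, chromosome 1, 202724495 to 202809470), a paralog with the same substrate, stood at 2821, 2760 and 3045 in the hypoxia cells and at 2693, 2657 and 2725 in the normoxia cells. Its groups did not overlap either, and it did not pass (0.09, SE 0.06, limma adjusted p = 0.228), though it was called higher with TMM factors (0.15), with equal totals (0.22) and by edgeR and DESeq2 (0.18 each).

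KDM2B (ENSG00000089094, chromosome 12, 121429097 to 121581015), which brings a variant Polycomb repressive complex 1 to CpG islands, averaged 896 ± 16.5 in hypoxia cells and 859 ± 57.3 in normoxia cells (SD, n = 3 each), and its log2 fold change of 0.06 (SE 0.07) missed the threshold (limma adjusted p = 0.577). It was called higher in 2 of 12 other settings, among them equal totals (0.19, limma adjusted p = 0.0411). JMJD6 (ENSG00000070495, chromosome 17, 76712832 to 76726799) averaged 638 ± 37.7 and 655 ± 44.0 (SD, n = 3 each, -0.04, SE 0.08, limma adjusted p = 0.782), with its sign turned to 0.09 by equal totals. Counting groups that did not overlap, 5 of the 10 members (KDM3A, KDM4B, KDM5A, KDM5B and KDM6B) were among them, against 40.3% of all genes tested. Set against the median of all genes, which equal totals moved from -0.07 to 0.06, KDM3A was higher by 1.18, KDM6B by 0.61 and KDM4B by 0.28 on the log2 scale. These differences are nearly the same under either scaling by construction, because a factor per library shifts each gene and the median alike.

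**Figure D1:**
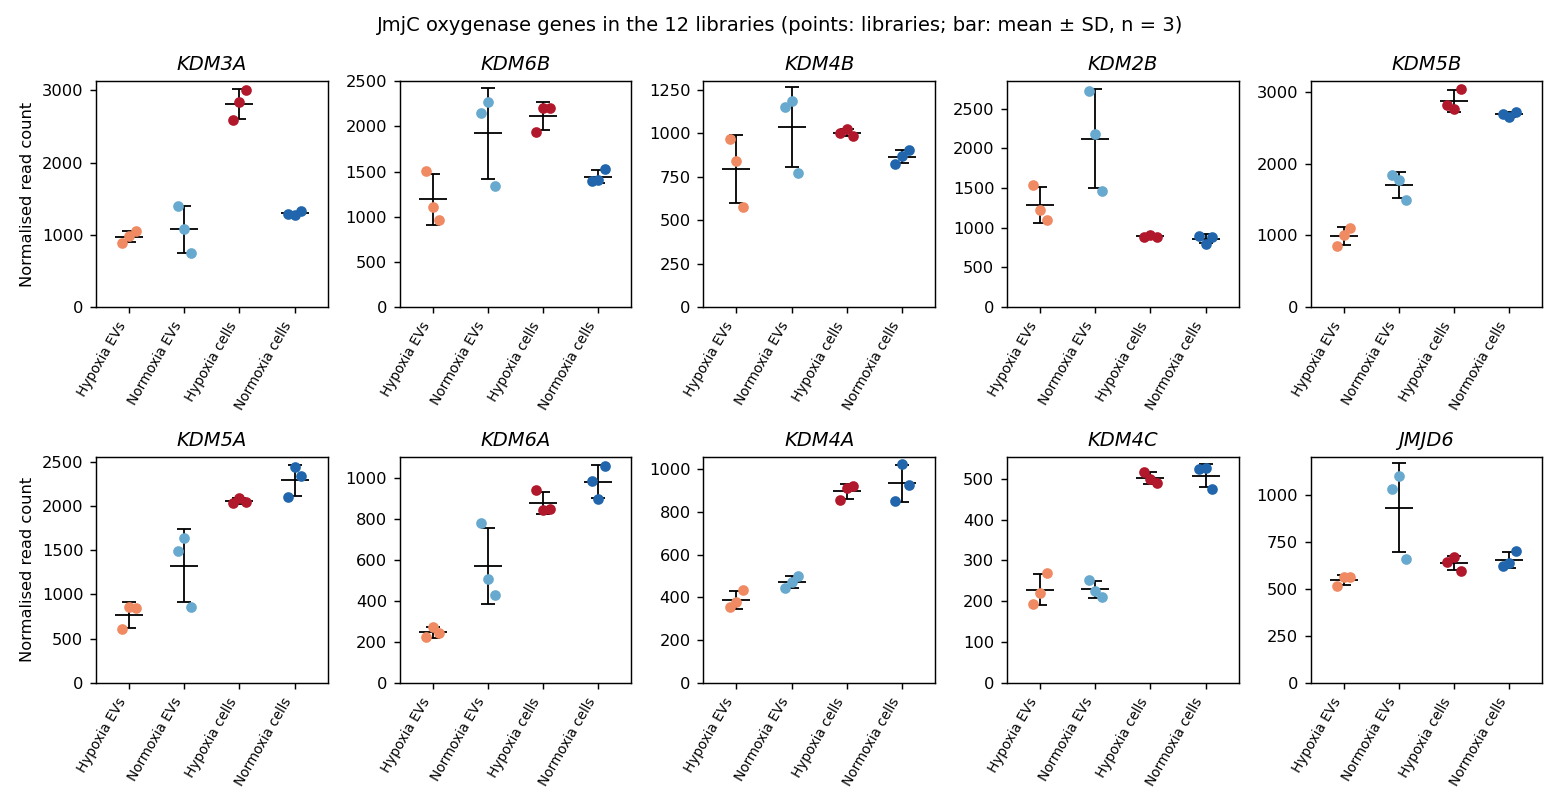
Normalised read counts (y axis, linear, from 0) of the 10 genes in hypoxia EVs, normoxia EVs, hypoxia cells and normoxia cells, with a point per library and bars for the mean ± SD of 3 libraries. KDM3A reached 2585 to 2997 in hypoxia cells and 1275 to 1324 in normoxia cells, while its EV libraries overlapped at 891 to 1049 in hypoxia and 745 to 1401 in normoxia.

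In EVs, the same comparison asks what the vesicle RNA showed of the treatment. KDM6A, KDM5B, KDM5A and JMJD6 were lower in hypoxia EVs than in normoxia EVs on the deposited scale, whereas none of KDM3A, KDM6B and KDM4B, all higher in hypoxic cells, passed here. This makes 4 of 10 members lower, against 6.62% of the 27904 genes tested, and 0 higher, against 5.68% (12.3% either way, limma). At an unadjusted p under 0.05, 6 were lower and 0 higher, and edgeR and DESeq2 each called 6 lower and 0 higher. The members' median log2 fold change was -0.68, against 0.60 over all genes tested. Over the 15260 genes with a mean of at least 50, the median of all genes was -0.15 and 25.2% were called either way. With that filter KDM2B and KDM6B were lower as well.

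The lower calls depend on how libraries are scaled. Totals of the deposited values were 8188529 to 8378680 in hypoxia EVs and 10292865 to 14143970 in normoxia EVs, and with equal totals the median of all genes moved from 0.60 to 1.21 and 0 of 10 members passed in either direction. KDM6A was then at -0.60 (limma adjusted p = 0.0659). On the deposited scale 7 members were lower without normoxia EV replicate 3, and 0 passed without any 1 of the other 5 EV libraries.

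KDM6A had the most negative fold change of the 10. It stood at 222, 274 and 242 in the hypoxia EVs and at 780, 506 and 428 in the normoxia EVs. Each hypoxia library lay well below each normoxia library (log2 fold change -1.17, SE 0.27, limma adjusted p = 0.0167). The receptor gene density amounted to 20.9% to 27.04% of KDM6A's own density in hypoxia EVs and to 1.35% to 8.29% in normoxia EVs, and with that density subtracted KDM6A was at -1.52. KDM5B stood at 856, 1006 and 1107 in the hypoxia EVs and at 1836, 1776 and 1497 in the normoxia EVs (-0.78, SE 0.21, limma adjusted p = 0.026), again without overlap.

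KDM5A stood at 602, 851 and 847 in the hypoxia EVs and at 1487, 1632 and 854 in the normoxia EVs. Normoxia replicate 3 nearly touched the hypoxia group (log2 fold change -0.75, SE 0.25, limma adjusted p = 0.0475). JMJD6 stood at 517, 565 and 565 in the hypoxia EVs and at 1037, 1106 and 663 in the normoxia EVs (-0.73, SE 0.23, limma adjusted p = 0.0441), with normoxia replicate 3 again the closest. KDM2B (-0.69, SE 0.23, limma adjusted p = 0.052) and KDM6B (-0.68, SE 0.24, limma adjusted p = 0.0575) missed the threshold with overlapping groups. Both passed with TMM factors (-0.76 and -0.74) and without normoxia EV replicate 3 (-0.93 and -0.91).

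KDM3A stood at 891, 984 and 1049 in the hypoxia EVs and at 1401, 1081 and 745 in the normoxia EVs. The normoxia libraries spread on both sides of the hypoxia ones, and the log2 fold change was -0.10 (95% interval -0.58 to 0.38, limma adjusted p = 0.769). With equal totals it was 0.47 (limma adjusted p = 0.0563). KDM4B (-0.39), KDM4A (-0.28) and KDM4C (-0.01) did not pass, and their estimates turned to 0.18, 0.29 and 0.55 with equal totals. In hypoxia EVs the receptor gene density came to 34.9% to 44.8% of the density of KDM4C, the least abundant member there, and its part in that gene's EV values was not tested further. The groups of 5 members (KDM4A, KDM5A, KDM5B, KDM6A and JMJD6) did not overlap, against 37.9% of all genes tested.

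**Figure D2:**
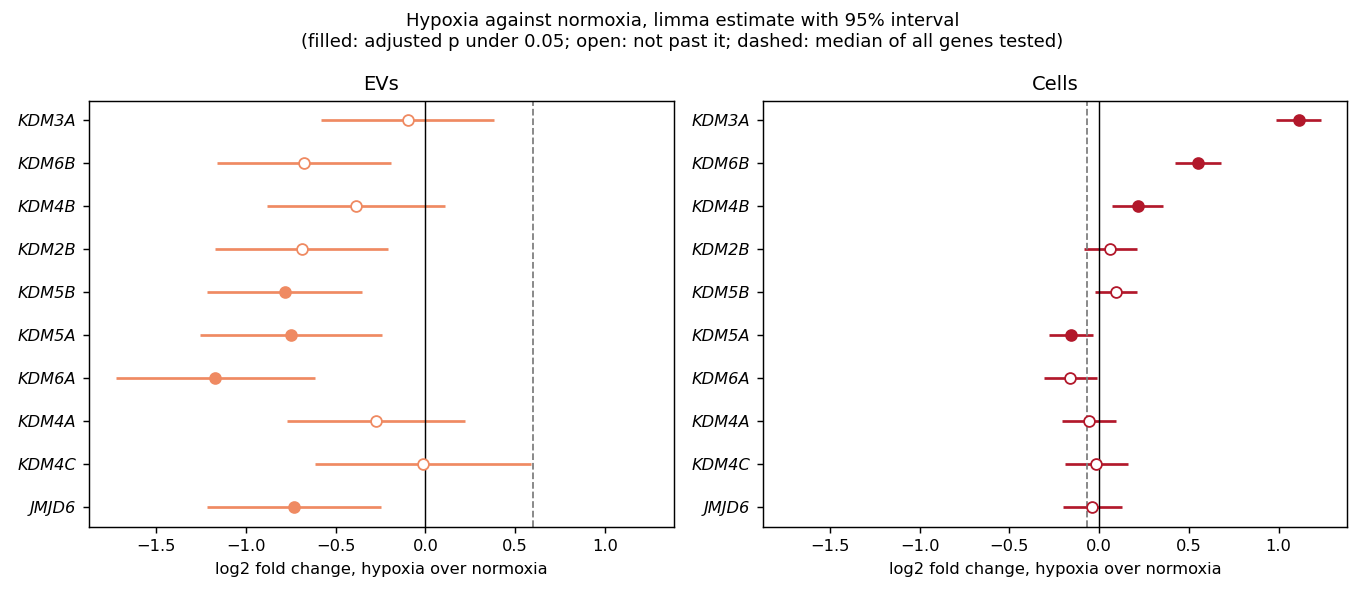
Log2 fold change of hypoxia over normoxia (x axis) with its 95% interval for each of the 10 genes in EVs (left) and cells (right), filled where the limma adjusted p was under 0.05, with the median of all genes tested as a dashed line. In EVs all 10 estimates lay below 0, from -1.17 for KDM6A to -0.01 for KDM4C, and 4 passed, while in cells KDM3A at 1.11 and KDM6B at 0.55 stood apart from the rest. With equal library totals, 4 of the EV estimates were above 0.

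The hypoxia responses of EVs and cells were compared directly as an interaction over all 12 libraries. This test shared an estimate of spread over EVs and cells, although normoxia EVs varied most, so its p-values are approximate. The response was lower in EVs than in cells for KDM6B (-1.22, SE 0.27, limma adjusted p = 0.0255), KDM3A (-1.21, SE 0.25, limma adjusted p = 0.0216) and KDM5B (-0.88, SE 0.20, limma adjusted p = 0.029). These 3 of 10 members compare with 1.87% of the 24171 genes tested, and 0 members were higher, against 0.443% (2.31% either way). Over the 13674 genes with a mean of at least 50, 6.38% were called either way, and KDM6A passed as well (limma adjusted p = 0.0333). At an unadjusted p under 0.05, 8 were lower and 0 higher, and edgeR and DESeq2 each called 6 lower and 0 higher. Without normoxia EV replicate 3, 8 members were lower. KDM3A and KDM6B passed with equal totals too (-0.77 and -0.78), whereas KDM5B did not (-0.44, limma adjusted p = 0.0924). KDM3A lost its call without any of the 6 cell libraries (limma adjusted p up to 0.0898), at an estimate of -1.27 to -1.16. The KDM6B call was lost without any cell library, normoxia EV replicate 2, hypoxia EV replicate 2 or hypoxia EV replicate 3 (limma adjusted p up to 0.0955), and KDM5B lost its call without any library other than normoxia EV replicates 1 and 3 and hypoxia EV replicate 3 (limma adjusted p up to 0.108). KDM6A lay at the threshold (-1.01, SE 0.27, limma adjusted p = 0.0503).

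Ratios of 2 genes in the same library do not depend on any scaling. The pairs below were taken within a subfamily after the values had been seen, so they are descriptions without a test. KDM3A over KDM3B, its paralog with the same substrate, was 1.57, 1.96 and 1.73 in hypoxia EVs and 1.12, 1.06 and 1.11 in normoxia EVs. In hypoxia cells this ratio was 1.12, 1.29 and 1.34, and in normoxia cells 0.606, 0.575 and 0.599. Hypoxia libraries were higher than normoxia libraries without overlap in both EVs and cells, and the EV ratios ran above the cell ratios of the same condition. In normalised counts KDM3B averaged 559 ± 53.2 in hypoxia EVs and 980 ± 289 in normoxia EVs, and KDM3A 975 ± 79.5 and 1076 ± 328 (SD, n = 3 each). On that scale the higher EV ratio in hypoxia thus came with lower KDM3B and without higher KDM3A. With the receptor gene density subtracted the EV ratios were 1.55, 2.00 and 1.73 in hypoxia and 1.12, 1.05 and 1.07 in normoxia.

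KDM6B over KDM6A was 6.81, 4.05 and 3.96 in hypoxia EVs and 2.75, 4.49 and 3.14 in normoxia EVs, so the EV groups overlapped. With the receptor gene density subtracted they no longer did, at 8.95, 4.85 and 5.04 in hypoxia EVs and 2.77, 4.62 and 3.33 in normoxia EVs. In hypoxia cells it was 2.06, 2.62 and 2.60, and in normoxia cells 1.42, 1.57 and 1.44, without overlap. KDM4B over KDM4A was 1.17, 1.12 and 1.07 in hypoxia cells and 0.968, 0.848 and 0.976 in normoxia cells, and in EVs it spread from 1.32 to 2.73 in hypoxia and from 1.55 to 2.58 in normoxia. KDM5A over KDM5B ranged from 0.704 to 0.846 in hypoxia EVs, 0.570 to 0.919 in normoxia EVs, 0.670 to 0.757 in hypoxia cells and 0.779 to 0.917 in normoxia cells.

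Of the reads on all 10 genes together, KDM3A took 11.6%, 13.2% and 14.7% in hypoxia EVs and 10.6%, 8.69% and 8.78% in normoxia EVs. In hypoxia cells it took 18.2%, 19.2% and 19.97%, and in normoxia cells 10.6%, 10.2% and 10.3%. The hypoxia share was higher without overlap in both kinds of library, by a smaller step in EVs. In EVs other members had lower values in hypoxia on the deposited scale, while KDM3A did not pass. The 10 genes together took 0.0898% ± 0.00335 of all reads in hypoxia EVs, 0.0916% ± 0.00835 in normoxia EVs, 0.147% ± 0.00180 in hypoxia cells and 0.115% ± 0.00160 in normoxia cells (SD, n = 3 each). The share was also taken with EIF4E, YTHDF1 and CD9, but not GBP1, left out of the total. It was then 0.117%, 0.114% and 0.113% in hypoxia EVs and 0.124%, 0.126% and 0.108% in normoxia EVs. On that base it was 0.156%, 0.159% and 0.161% in hypoxia cells and 0.122%, 0.125% and 0.122% in normoxia cells, so in normoxia EVs and cells overlapped.

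**Figure D3:**
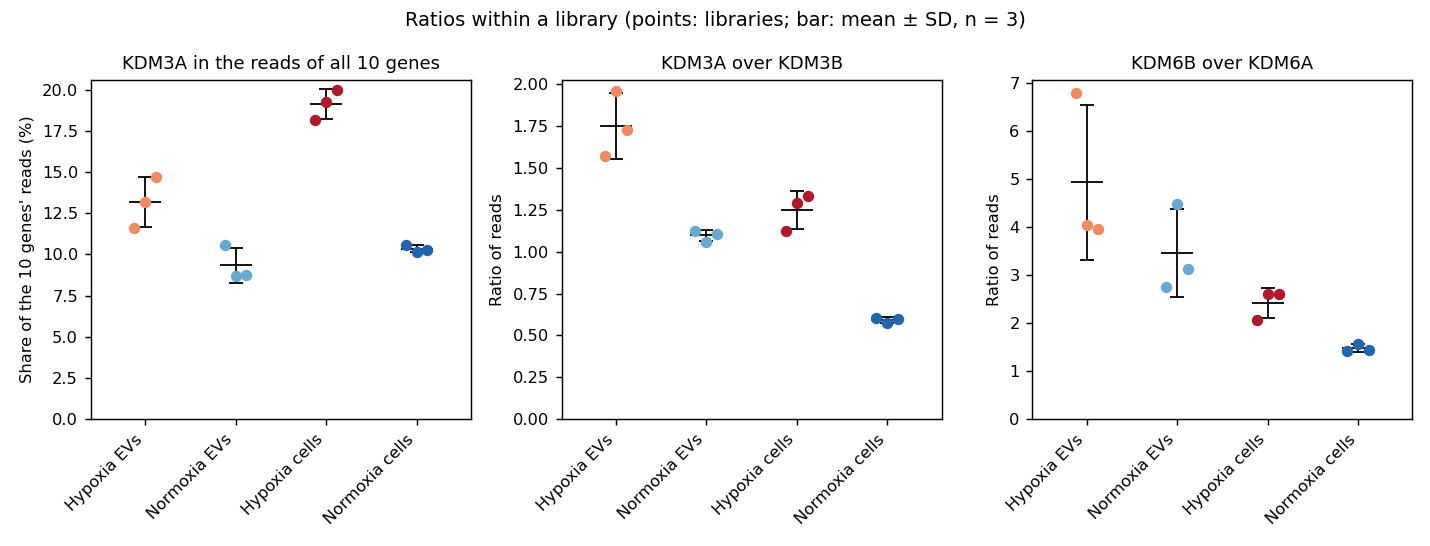
Share of KDM3A in the reads of all 10 genes (left, percent), reads of KDM3A over KDM3B (middle) and reads of KDM6B over KDM6A (right) in each library, with a point per library and bars for the mean ± SD of 3. The KDM3A to KDM3B ratio ran from 1.57 to 1.96 in hypoxia EVs, above 1.06 to 1.12 in normoxia EVs, and from 1.12 to 1.34 in hypoxia cells, above 0.575 to 0.606 in normoxia cells. In normalised counts KDM3B averaged 559 in hypoxia EVs and 980 in normoxia EVs.

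EVs were then set against cells to see how the mRNAs were represented in vesicles. KDM2B was the member with higher values in EVs, and KDM6A, KDM4C, KDM5A, KDM5B, KDM4A and KDM3A had lower ones. That is 1 of 10 higher, against 43.1% of the 24171 genes tested, and 6 of 10 lower, against 31.8% (74.9% either way, limma, mean of both EV groups minus mean of both cell groups). The members' median log2 difference was -1.01, against 0.32 over all genes tested. The median of all genes turned to -0.41 when the minimum mean was 50 and to -0.27 with the receptor gene density subtracted, which narrows the gap to the members. With TMM factors, under which the median of all genes was -0.081, 1 member was higher and 8 were lower.

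KDM2B stood at 1544, 1230 and 1095 in hypoxia EVs and 2721, 2184 and 1470 in normoxia EVs, against 889, 915 and 884 in hypoxia cells and 896, 793 and 888 in normoxia cells. Every EV library was above every cell library (log2 difference 0.89, SE 0.13, limma adjusted p = 5.68e-06). The call held in all 13 other settings, at 0.51 to 1.26. Its paralog KDM2A, of the same substrate, went the other way (-0.53, limma adjusted p = 0.000127). KDM2B over KDM2A was 1.34, 1.12 and 1.07 in hypoxia EVs and 1.44, 1.29 and 1.14 in normoxia EVs, against 0.443, 0.464 and 0.434 in hypoxia cells and 0.504, 0.424 and 0.499 in normoxia cells. Its exons overlap those of RNF34 and AC145422.1 on the opposite strand over 4.87% of their length, and although the library kit was a stranded one per the labels, the sources used here do not say how strand was set in counting.

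KDM6A had the most negative difference (-1.33, SE 0.13, limma adjusted p = 3.43e-08), followed by KDM4C (-1.15), KDM5A (-1.14), KDM5B (-1.10) and KDM4A (-1.09). For KDM2B and these 5 genes EV and cell libraries did not overlap, 6 of 10 members, against 41.2% of all genes tested. KDM4A shares 40.2% of its exon bases with AL451062.3, annotated as a read-through transcript on the same strand, whose ID is not among those used, so its values may hold reads of both. KDM3A was lower as well (-0.92, SE 0.13, limma adjusted p = 1.94e-06) with overlapping libraries. In hypoxia alone its EV minus cell difference was -1.53 (limma adjusted p = 4.64e-07), and in normoxia alone it did not pass (-0.32, limma adjusted p = 0.134).

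KDM4B (-0.07, 95% interval -0.35 to 0.21), KDM6B (-0.24, -0.51 to 0.04) and JMJD6 (0.13, -0.13 to 0.39) did not pass. KDM6B was lower in EVs than in cells in hypoxia (-0.85, limma adjusted p = 0.000607) and at 0.38 in normoxia (limma adjusted p = 0.0963), and JMJD6 was higher in EVs in normoxia (0.48, limma adjusted p = 0.0251) and at -0.22 in hypoxia (limma adjusted p = 0.278). For JMJD6 normoxia EV replicate 3 (663) lay within the range of the normoxia cells (622 to 705). Tests within 1 condition shared an estimate of spread over all 12 libraries, although normoxia EVs varied most. For these 3 genes the sign of the overall difference depended on the scaling, with KDM4B at 0.25 and KDM6B at 0.08 when totals were made equal without the vector genes, and JMJD6 at -0.21 with TMM factors.

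**Figure D4:**
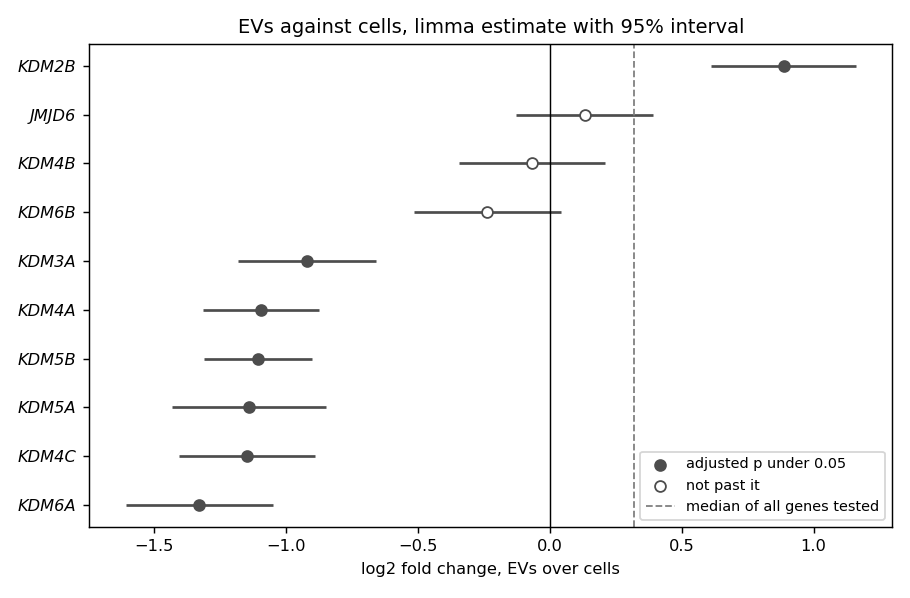
Log2 difference of EVs minus cells (x axis) with its 95% interval for the 10 genes, in order of size, filled where the limma adjusted p was under 0.05, with the median of all genes tested (0.32) as a dashed line. KDM2B at 0.89 lay above that median and the 6 genes from KDM3A at -0.92 to KDM6A at -1.33 lay below it.

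Compared per length of merged exons, KDM6B had the highest level of the 10 genes in each group. It averaged 19.9 ± 4.88 RPKM in hypoxia EVs, 21.2 ± 3.44 in normoxia EVs, 29.3 ± 1.73 in hypoxia cells and 18.3 ± 0.281 in normoxia cells (SD, n = 3 each). KDM4C had the lowest, at 2.67 ± 0.457, 1.81 ± 0.139, 4.89 ± 0.215 and 4.54 ± 0.398 RPKM in the same order of groups. In normoxia cells KDM6B overlapped the next gene, KDM5A (17.5 ± 1.29 RPKM), and KDM5A overlapped KDM4A (16.7 ± 1.65), so the top 3 were not separated beyond their spread, and KDM3A (8.91 ± 0.154) ranked 7. In hypoxia cells KDM3A ranked 2, at 21.0 ± 1.24 RPKM, apart from KDM6B above it and KDM4A (17.4 ± 0.405) below it. In hypoxia EVs KDM2B (11.5 ± 2.12 RPKM) overlapped JMJD6 (11.1 ± 0.490), and each gene from KDM4A (9.12 ± 1.01) down to KDM6A (4.17 ± 0.396) overlapped the next one. The order depends on the length used, because merged exons were 1.08 to 2.72 times as long as the longest coding transcript. Per length of that transcript, a choice made after seeing the data, KDM3A came first in hypoxia cells (57.2 ± 3.38 RPKM) and in normoxia cells (24.3 ± 0.421), and KDM2B in hypoxia EVs (29.9 ± 5.53) and normoxia EVs (32.4 ± 4.79). KDM3A was apart from the next gene in hypoxia cells, but overlapped KDM5B (24.0 ± 0.571) in normoxia cells. KDM2B overlapped KDM3A (23.9 ± 1.91) and KDM6B (21.5 ± 5.28) in hypoxia EVs and was above KDM6B (23.0 ± 3.72) without overlap in normoxia EVs.

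The genes with the most similar pattern to KDM3A over the 12 libraries were IFT140 (Pearson r = 0.96), SIPA1L2 (0.96) and SLC2A1 (0.95), among 10249 protein-coding genes whose mean value reached 100. For KDM6B they were SAT1 (0.95), FAM13A (0.93) and FLNC (0.92), and for KDM4B GPRIN1, DMWD (0.94 each) and EVC (0.93). These are descriptions over libraries that share the split between EVs and cells.

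Of the 17 remaining JmjC genes tested in hypoxic cells, 3 rose and 2 fell, with a median of -0.01. Over all genes tested, 8.01% rose, 22.4% fell and 30.4% were called either way. JARID2, a JmjC protein without demethylase activity that works with Polycomb repressive complex 2, rose (0.46, limma adjusted p = 1.8e-07), as did KDM7A (0.24), a demethylase of H3 lysines 9 and 27, while RIOX2, a nucleolar oxygenase, fell (-0.59, limma adjusted p = 3.06e-07). In EVs 2 of 18 were lower in hypoxia, against 6.62% of all genes tested, KDM7A (-1.08) and KDM3B (-0.77), both named after their values were seen. Against cells, EVs had 12 of 18 lower and 5 higher, against 31.8% and 43.1% of all genes tested. Among the lower ones were KDM7A (-1.67), KDM3B (-1.61) and HIF1AN (-1.52), which encodes the asparagine hydroxylase of HIF.

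Counts for the enzymes that place the marks removed by the members, and for their partners, stand beside 22.4% of all genes lower and 8.01% higher in hypoxic cells. On the deposited scale the share that fell was above that of all genes in each list. The lists held only 5 to 15 genes, and no list was tested as a whole. Among genes with a mean of at least 50, 42.3% were called either way. Of 6 H3 lysine 9 methyltransferases 3 fell, EHMT2 by 0.36, SETDB1 by 0.27 and EHMT1 by 0.22 (log2). Of 9 genes of the H3 lysine 4 methyltransferases and their core 4 fell, with DPY30 at -0.66, SETD1B at -0.47 and KMT2D at -0.28, and of 5 H3 lysine 36 methyltransferases 3 fell and 1 rose, with NSD1 at -0.30, ASH1L at -0.19 and NSD2 at 0.19. Polycomb repressive complex 2 had 3 of 7 lower (RBBP7 at -0.33 and RBBP4 at -0.31) and 2 higher, JARID2 being in this list too. Among KDM2B's partners 3 of 9 fell, with RNF2 at -0.42, BCOR at -0.35 and USP7 at -0.31, and among KDM6A's partners, which share genes with the H3 lysine 4 list, 3 of 8 fell, WDR5 (-0.32) with DPY30 and KMT2D. Of 5 genes of the FAD-dependent demethylases and their CoREST partners, KDM1B (-0.37) and KDM1A (-0.19) fell and RCOR2 (0.85) rose. Of 12 nucleic acid oxygenases 2 rose and 4 fell, with ALKBH5, an RNA demethylase, at 0.52, ALKBH2 at -0.50 and FTO at -0.40. Of 15 enzymes that make or use 2-oxoglutarate, succinate or fumarate 10 fell and 2 rose, with SDHB at -0.49, GOT2 at -0.46 and IDH2 at 0.54, and their median of -0.41 stood beside -0.07 for all genes tested. With equal totals the counts shifted toward higher values: 0 higher and 1 lower of the H3 lysine 9 methyltransferases, 3 and 4 of the H3 lysine 4 list, 1 and 1 of the H3 lysine 36 methyltransferases, 3 and 9 of the co-substrate enzymes, and 6 and 1 of the remaining JmjC genes.

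In EVs 0 genes of these further lists were higher in hypoxia on the deposited scale, where 5.68% of all genes were higher and 6.62% lower. Among genes with a mean of at least 50, 25.2% were called either way. Lower were 4 of 5 H3 lysine 36 methyltransferases, 5 of 9 of the H3 lysine 4 list, 3 of 6 H3 lysine 9 methyltransferases, 1 of 7 of Polycomb repressive complex 2, 2 of 9 partners of KDM2B, 2 of 8 partners of KDM6A, 1 of 5 FAD demethylase genes, 2 of 12 nucleic acid oxygenases and 2 of 15 co-substrate enzymes. With equal totals 1 of all these genes was lower, in the H3 lysine 4 list, and 0 were higher, as for the members.

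Counts of EVs against cells stand beside 31.8% of all genes lower and 43.1% higher, and no list was tested as a whole. All 7 of Polycomb repressive complex 2 were lower, with RBBP4 at -1.94, SUZ12 at -1.85 and RBBP7 at -1.55, and all 5 H3 lysine 36 methyltransferases, with NSD1 at -1.03, ASH1L at -0.98 and NSD3 at -0.69. Lower too were 14 of 15 co-substrate enzymes (IDH1 at -2.63, GLUD1 at -2.51, GOT2 at -1.57), 4 of 5 FAD demethylase genes (KDM1B at -2.23, KDM1A at -2.12, RCOR1 at -1.23) and 9 of 12 nucleic acid oxygenases (TET1 at -1.34, ALKBH8 at -1.17, FTO at -1.03). Of KDM2B's partners 6 of 9 were lower, with RNF2 at -2.08, SKP1 at -1.62 and USP7 at -1.58, while KDM2B itself was higher in EVs. Of KDM6A's partners 7 of 8 were lower (DPY30 at -1.85, RBBP5 at -1.26, KMT2C at -1.09), of the H3 lysine 4 list 6 of 9 were lower and 2 higher (KMT2A at -1.15), and of the H3 lysine 9 methyltransferases 4 of 6 were lower (SUV39H2 at -0.62, EHMT2 at -0.57) and EHMT1 was higher (0.92).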

How the data were processed

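RNA of 6 EV and 6 cell libraries was compared, in 4 groups of 3 assigned by the sample titles. Per gene, the deposited table holds a signal, namely read counts that the authors divided by a factor of each library. The values show it, because 100% came out as whole multiples of a library's step within a tolerance of 0.01, which also gave back the reads. Bowtie (0.12.2) and the builds hg38 and GRCh38 stand in the submitters' processing notes, as does DESeq2 (1.30.1). The sources used here give no counter, annotation, strand setting or filter. Within groups, libraries differed beyond counting noise (5.27 to 14.8 chi-square units for each degree of freedom).

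Of the IDs, 52338 (90.6%) had a position and merged exon length in GENCODE release 29 (GRCh38). Values were tested as log2(value + 1) by limma-trend (version 3.58.1 in R 4.3.3), which understates the change of low genes, adjusted over all genes with a mean of at least 10. Hypoxia was tested within 6 cell and within 6 EV libraries, EVs against cells and the interaction over all 12. The fit was tried on simulated counts with the same excess scatter in every library. That trial does not cover the wider spread of normoxia EVs or differences in background between groups. Alternatives were pseudocounts 0.5 and 5, filters, TMM, equal totals, subtracted receptor gene density, edgeR 4.0.16 and DESeq2 1.42.0 on recovered reads, leaving out each library, and a replicate block. Named from other lists were up to 3 genes with the smallest p among those past the threshold, in cells and in EVs against cells. EVs against cells within 1 condition, and levels per longest transcript, were added after seeing the data. Members and lists were chosen with earlier results of these data known. A gene at 0 could hold up to 3 reads per library, which covers counting error only. PAGR1, NEFL and PECAM1 were not analysed here.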

Additional observations from a re-analysis of the deposited data

Results flagged for a closer look

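For 3 genes the hypoxia response differed between EVs and cells by the interaction test over all 12 libraries (limma). It was -1.22 for KDM6B (log2, EV response minus cell response), with log2 fold changes of -0.68 in EVs and 0.55 in cells. It was -1.21 for KDM3A, with -0.10 in EVs and 1.11 in cells, and -0.88 for KDM5B, with -0.78 in EVs and 0.09 in cells. All 3 calls ended without a filter on low values (limma adjusted p = 0.0617 for KDM3A and KDM5B and 0.0633 for KDM6B) and without any 1 of the 6 cell libraries. Of 12 fits that left out 1 library, 6 called KDM3A, 3 called KDM6B and 3 called KDM5B, and KDM5B also ended with equal totals (limma adjusted p = 0.0924). The receptor gene density, 1.03 RPKM in hypoxia EVs and 0.263 RPKM in normoxia EVs, moved with the EV groups, and after it was subtracted the differences were -1.29 for KDM6B, -1.32 for KDM3A and -1.17 for KDM5B. The part of this density in the differences was not tested further. The interaction test shared an estimate of spread over all 12 libraries, although normoxia EVs varied most.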

How the results depend on the processing

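In cells the count of members higher, 3, became 5 with equal totals, with or without vector genes, and 1 in a fit over all 12 libraries. The genes added with equal totals were KDM2B and KDM5B. KDM5B was higher as well with TMM, edgeR and DESeq2. The 1 lower became 0 without a filter, with TMM, both equal totals, edgeR, DESeq2 and all 12 libraries. Of all genes, 30.4% were called, against 42.3% with a minimum mean of 50, 8.5% without a filter and 0.348% over all 12 libraries. Leaving out 1 library gave 2 to 3 higher, 0 to 1 lower and 24.7% to 27.3%. Estimates near 0 changed sign: KDM4A was 0.070, 0.084, 0.024 and 0.027 with equal totals, equal totals without vector genes, edgeR and DESeq2, KDM4C 0.11, 0.12, 0.064 and 0.069 (0.035 with TMM) and JMJD6 0.088, 0.10, 0.045 and 0.049 (0.014 with TMM). Without 1 library KDM4A ran from -0.12 to 0.013, KDM4C from -0.064 to 0.0098 and JMJD6 from -0.074 to 0.017.

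In EVs the 4 members lower became 2 with a pseudocount of 0.5 or no filter and 0 with either equal totals. KDM2B and KDM6B were lower as well with a minimum mean of 50, TMM, edgeR and DESeq2, and KDM2B also with receptor density removed. Of all genes, 12.3% were called, against 19.0% with a pseudocount of 5, 25.2% with a minimum mean of 50, 5.59% without a filter and 34.1% over all 12 libraries. Without 1 library 0 to 7 members and 0.0243% to 36% of all genes were called. With equal totals without vector genes KDM3A was 0.44, KDM4A 0.26, KDM4B 0.15 and KDM4C 0.52, and with equal totals they were 0.47, 0.29, 0.18 and 0.55. Without 1 library KDM3A ran from -0.34 to 0.12 and KDM4C from -0.14 to 0.10.

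For EVs against cells, 74.9% of all genes were called, against 44.7% without a filter. The 1 member higher became 3 with equal totals without vector genes and 2 in the normoxia groups alone. Without 1 library, 1 to 2 were higher, 6 to 7 lower and 71.1% to 78.5% of all genes called. JMJD6 was -0.21 with TMM, -0.019 with edgeR and -0.22 in the hypoxia groups, KDM4B 0.25 and KDM6B 0.080 with equal totals without vector genes, and 0.23 and 0.38 in the normoxia groups. Without 1 library KDM4B ran from -0.15 to 0.038.

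For the interaction, the 3 members lower became 6 with TMM, edgeR or DESeq2 and 0 without a filter. Of all genes, 2.31% were called, against 6.38% with a minimum mean of 50, 0.199% without a filter, 8.34% with TMM, 6.63% with receptor density removed, 6.88% with edgeR and 9.06% with DESeq2. Without 1 library 0 to 8 members and 0.154% to 22.8% of all genes were called. KDM4A was 0.22 and 0.17 with the equal totals, KDM4C -0.19 with TMM, -0.48 with receptor density removed and -0.082 with edgeR, and -0.13 to 0.11 without 1 library. The cause of these changes was not tested.

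Same-numbered libraries did not deviate together (correlations -0.14 to 0.09). In 4 of 24 matches between groups, with each library matched more than once, a library was closest to its own number. The labels do not say whether numbers pair the libraries, and with 3 libraries per group these correlations cannot settle it. With the replicate block 6 members were lower in EVs, KDM2B and KDM6B included, with 19.4% of all genes called, and 1.35% were called in the interaction. The block changed no other member's call. Depth limits EVs most, where the least covered member had 96 reads. Fits that leave out a library assume that the remaining libraries vary like the others.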
